A study of Nothobranchius furzeri with 12 samples.

Results

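Late mid-life was set against young adulthood in the retina of the turquoise killifish Nothobranchius furzeri, a fish kept in ageing research for its short life. Of the 12 libraries of the series, 6 carry this comparison, and they were chosen by age and library name: 3 male fish at 4.5 months (libraries BC8, Resub-BC13 and Resub-BC14) and 3 male fish at 1.5 months. The 3 fish at 3.0 months served to place the age between them, and the 3 at 6.0 months to show what came later. Each library is bulk RNA of the retina with the retinal pigment epithelium (RPE) still attached, after cornea, lens, iris, sclera and choroid had been dissected away, per the labels' protocols. All fish were untreated and shared 1 background, a mutant line backcrossed to the GRZ strain; which gene is mutated, and whether a given fish carries the mutation, is not stated in the labels used here. The word Resub in the names of both other libraries at 4.5 months is not explained in the labels, and the time of day of collection is not given in the sources used here. Whatever Resub stands for and the fish themselves cannot be told apart, because no other age has such libraries.

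The retina holds rod and cone photoreceptors, whose signals pass through bipolar cells to ganglion cells, while Mueller glia and the RPE support them. In fish the retina keeps growing through life from progenitor cells at its margin, and myelin-forming oligodendrocytes wrap the axons of ganglion cells. Retinal cells also hold a circadian clock, in which Period, Cryptochrome and Rev-erb proteins repress their own genes and which sets the daily making of melatonin.

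Total counts were 46976879, 49877882 and 50015986 in BC8, Resub-BC13 and Resub-BC14 and 43977841 to 50268318 in the libraries at 1.5 months. The Resub libraries resembled each other (Spearman 0.994 across genes) more than either resembled BC8 (0.963 to 0.966), and genes are not independent replicates. Markers of the labelled tissue were present: the 29 rod genes summed to 19780 to 27930 CPM (a gene's counts scaled to a common library total) at 4.5 months and 16640 to 22260 CPM at 1.5 months, and the 25 tested genes of RPE and visual cycle to 14090 to 31020 and 18420 to 26820 CPM. RNA of neighbouring tissue was uneven. The lens genes summed to 2087 CPM in BC8, to 73.1 and 34.5 CPM in the Resub libraries and to 65.4, 886.4 and 19.7 CPM at 1.5 months. BC8, replicate 2 at 1.5 months and replicate 1 at 6.0 months (16670 CPM) are the 3 libraries with lens RNA left out of some fits below. Genes of cornea and surface epithelium summed to 554.1, 129.0 and 100.3 CPM against 5400, 301.9 and 378.7 CPM. Replicate 1 at 1.5 months, which had the 5400 CPM, was also far off for mural cell and fibroblast genes (8042 CPM beside 880.6 and 1172 CPM in the other young fish). Its extracellular matrix genes summed to 8626 CPM beside 1581 and 1998 CPM. That library was kept in the fits without lens RNA. Erythrocyte genes summed to 211.7 CPM in BC8, to 51.0 and 58.5 CPM in the Resub libraries and to 88.3 to 129.4 CPM at 1.5 months. The 80 genes of cytosolic ribosomal proteins took 58660 CPM in BC8, 25170 and 23830 CPM in the Resub libraries, and 40710 to 53780 CPM at 1.5 months. No gene of the lens, cornea, erythrocyte and ribosomal protein lists passed the test between 4.5 and 1.5 months. No list member had 0 counts in all 6 libraries.

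**Figure D1:**
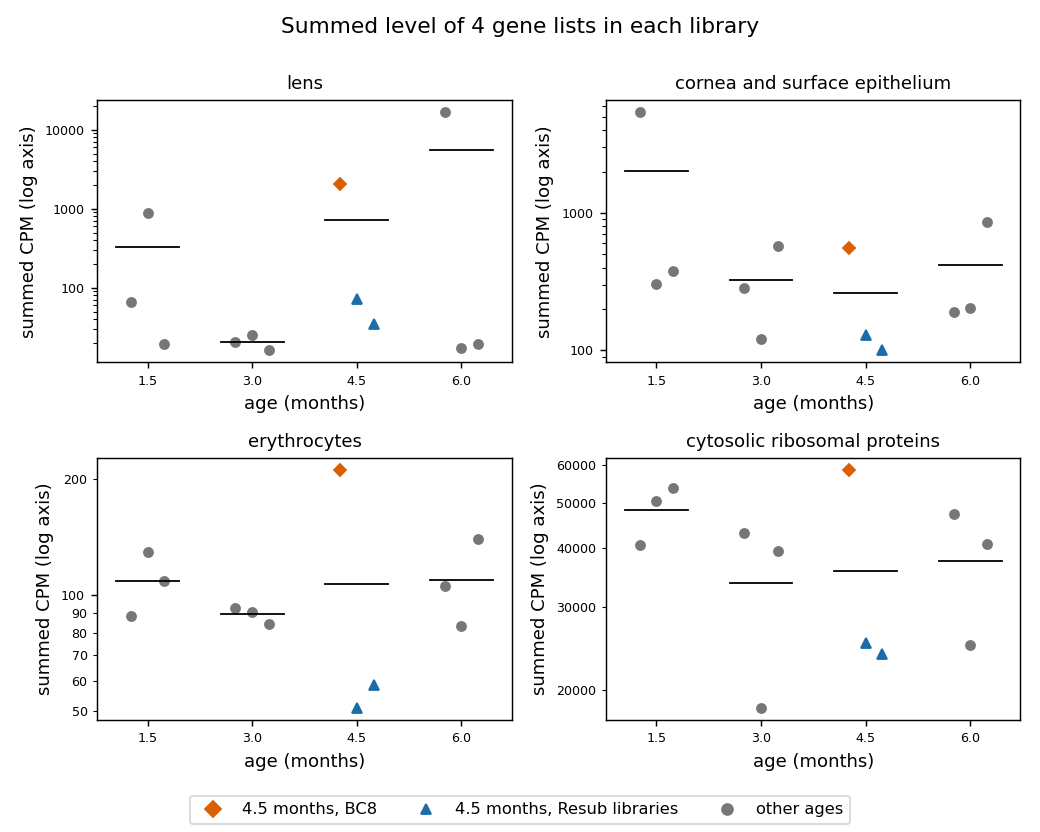
Summed CPM (log axis) of the tested genes of lens, cornea and surface epithelium, erythrocytes and cytosolic ribosomal proteins in each of the 12 libraries, by age in months; points are libraries and black lines are means of 3. BC8 (diamond) has the highest erythrocyte and ribosomal protein sums, and the Resub libraries (triangles) lie together, below each fish at 1.5 months in both.

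Between 4.5 and 1.5 months, 627 of 20717 tested genes passed an adjusted p of 0.05 in edgeR's quasi-likelihood test, which is 3.03% of them. Of these, 229 rose (1.11% of all tested genes) and 398 fell (1.92%). At an unadjusted p under 0.05 there were 4605 genes (22.2%). The genes that rose did so by a median of 0.85 on the log2 scale and those that fell by a median of -0.91, while the median of all tested genes was 0.03. Circadian clock genes moved in both directions, a germ-line pair fell furthest among the named genes, some markers of progenitors (5 of 27), oligodendrocytes (3 of 18), bipolar cells (2 of 18) and ganglion cells (2 of 13) fell, and a few genes of macrophages and interferon response rose. In such bulk tissue, fewer cells of a type and less RNA per cell cannot be told apart.

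The number of genes that passed rested on few libraries. It was 2841 without BC8, 7 without Resub-BC13 and 5 without Resub-BC14; leaving out the 3 fish at 1.5 months in turn gave 166, 12 and 28 genes. Without replicates 1, 2 or 3 at 3.0 months it was 438, 905 and 362, and without those at 6.0 months 329, 742 and 355. Of 64 named genes that passed, 4 did so in each of these 12 fits, nr1d4a, cntd2 and csgr19h18orf21 among them. None of the 64 changed the sign of its log2 change in any of the 12 fits. The choice largely set this, since the 3 fish of each age did not overlap at any gene that passed. Some genes named below, mex3a and tekt1 among them, were not followed in these fits. Single-gene calls below are read with these limits. Fitted with only the 6 libraries of both ages, 107 genes passed. The clock list then had 1 rise and 0 falls, the bipolar and oligodendrocyte lists 2 falls each, and the progenitor, cell cycle and synaptic lists 1 fall each. None of the other lists had a member that passed.

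BC8 moved in the same direction as both Resub libraries at each of the 627 genes, and lay beyond all 3 fish at 1.5 months at each of them. This follows in part from the choice, since a gene passes only when its 3 fish move together; over all tested genes, 51.7% had all 3 fish on 1 side of the mean of 1.5 months. The 3 fish of each age did not overlap at any of the 627 genes, against 26.4% of all tested genes. What differed was the size. BC8 changed less than the mean of the Resub libraries at 187 of the 229 genes that rose (81.7%) and at 310 of the 398 that fell (77.9%). The same share over all tested genes was not counted. Over all tested genes the quartiles of the log2 change were -0.29 and 0.25 in BC8 and -0.38 and 0.32 in the Resub libraries. Wider changes in the Resub libraries were thus not particular to the 627 genes. For the genes that rose the median log2 change was 0.58 in BC8 and 0.94 in the Resub libraries, and for those that fell -0.76 and -1.01, each against the same fish at 1.5 months. The difference between BC8 and the Resub libraries passed its own test at 13 of the 627 genes, where 0.796% of all tested genes passed it (165; 4263 at an unadjusted p under 0.05, which is 20.6%).

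**Figure D2:**
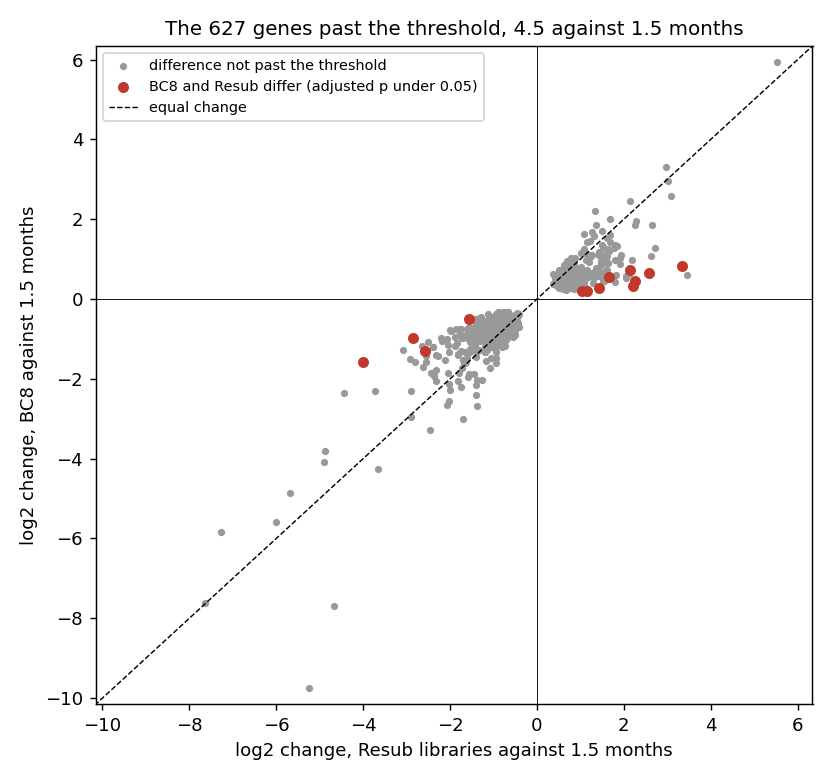
Log2 change against 1.5 months of the 627 genes that passed between 4.5 and 1.5 months, in the Resub libraries (x axis) and in BC8 (y axis); both share the 1.5 months fish. In every point both changes have the same sign, most lie nearer to the x axis than the dashed line of equal change, and the 13 red points mark genes at which BC8 and the Resub libraries differed at an adjusted p under 0.05.

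Tested apart, the 2 kinds of library called very different numbers of genes. BC8 alone against 1.5 months passed at 10 genes (0.0483% of those tested), with its spread taken from the other groups because it is a single library. The Resub libraries against 1.5 months passed at 2847 genes (13.7%), of which 1497 were higher (7.23% of all tested genes) and 1350 lower (6.52%). At an unadjusted p under 0.05 there were 2553 genes (12.3%) in BC8 and 6443 (31.1%) in the Resub libraries. BC8 lay beyond all 3 fish at 1.5 months in the same direction at 773 of the 1497 Resub rises (51.6%), where 40.7% of all genes on that side did so, and at 930 of the 1350 Resub falls (68.9%), where 39.4% did. It lay beyond them in the opposite direction at 217 of the rises and 102 of the falls. The shares of all tested genes in that opposite direction were not counted, so whether these are many or few is not known here. Both count on the same controls, so these shares describe the libraries and are not independent of each other. The BC8 count was 0 without replicate 2 or replicate 3 at 1.5 months, 6 without replicate 1 there, 1 without either Resub library, 156 without replicate 2 at 3.0 months and 34 without replicate 1 at 6.0 months. The Resub count was 1440 and 1177 without replicates 2 and 3 at 1.5 months, and 175 without Resub-BC13 and 470 without Resub-BC14.

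Clock genes gave more calls than any other list: of 29 tested, 2 rose and 5 fell, beside 1.11% and 1.92% of all tested genes. The repressor nr1d4a, a Rev-erb type nuclear receptor of fish, had 28.1, 22.6 and 36.3 CPM in BC8, Resub-BC13 and Resub-BC14, against 3.98, 3.8 and 3.07 CPM in the 3 fish at 1.5 months. All 3 older fish were far above the young ones, and BC8 lay between the Resub libraries. The log2 change was 3.00 ± 0.26 (SE; edgeR adjusted p = 7.36e-04), and BC8 alone passed against 1.5 months (2.96, edgeR adjusted p = 0.0133).

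Period genes fell at 4.5 months. The repressor per3 had 123 CPM in BC8 and 69.9 and 63.1 CPM in the Resub libraries, against 247, 223 and 206 CPM at 1.5 months, a log2 change of -1.4 ± 0.23 (edgeR adjusted p = 0.0175). Its relative per2, which light induces in fish, had 65.8, 76 and 69.2 CPM at 4.5 months and 142, 104 and 112 CPM at 1.5 months (log2 change -0.76 ± 0.15, edgeR adjusted p = 0.0271). In neither gene did the ages overlap, and BC8 was the least lowered fish for per3 but the most lowered for per2.

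The clock repressors ciart and nr1d2b, and cry5, which in zebrafish encodes a light-dependent DNA repair enzyme, also fell. BC8, Resub-BC13 and Resub-BC14 had 12.3, 4.79 and 5.29 CPM of cry5, against 33.1, 27.6 and 29.6 CPM at 1.5 months (log2 change -2.02 ± 0.31, edgeR adjusted p = 0.0151). For nr1d2b, a Rev-erb beta gene, the values were 221, 100.1 and 112 CPM at 4.5 months and 349, 308 and 282 CPM at 1.5 months (log2 change -1.11 ± 0.25, edgeR adjusted p = 0.0388). In both, BC8 had about the middle place between the young fish and the Resub libraries, and its difference from the Resub libraries passed the test (1.28 ± 0.21 and 1.06 ± 0.18 on the log2 scale, edgeR adjusted p = 0.0324 and 0.0324). The change of ciart was -1.14 ± 0.20 (edgeR adjusted p = 0.0201), and its BC8 level of 17.7 CPM stood beside 11.11 and 14.5 CPM in the Resub libraries and 30.2, 36.2 and 29 CPM at 1.5 months.

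Of the melatonin pathway, aanat1, whose enzyme acts just before the last step, had 279, 224 and 202 CPM at 4.5 months and 127, 46.6 and 89.8 CPM at 1.5 months (log2 change 1.42 ± 0.30, edgeR adjusted p = 0.0325). Here BC8 was the highest of the 6 fish. The pathway's entry enzyme, tryptophan hydroxylase tph1, which was not in the clock list, had 208 CPM in BC8, 543 and 563 CPM in the Resub libraries and 133, 117 and 127 CPM at 1.5 months (log2 change 1.8 ± 0.29, edgeR adjusted p = 0.0178). BC8 was above all young fish but much nearer to them than to the Resub libraries, and that difference passed (-1.41 ± 0.20, edgeR adjusted p = 0.0168). The median log2 change of the 29 clock genes was -0.37 in all (-0.23 in BC8 and -0.47 in the Resub libraries), and the list counted 5 rises and 13 falls without BC8, 1 rise and 0 falls without either Resub library, and the same without replicate 2 or replicate 3 at 1.5 months. Leaving out replicate 1 at 1.5 months gave 2 rises and 3 falls, and fitting only the 6 libraries of both ages 1 rise and 0 falls. The gene nr1d1 (log2 change -1.45 ± 0.43) and aanat2 (1.76 ± 0.58) did not pass (edgeR adjusted p = 0.0914 and 0.108), and the sources used here do not give the hour of collection, so the part of daily phase in these values was not tested.

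**Figure D3:**
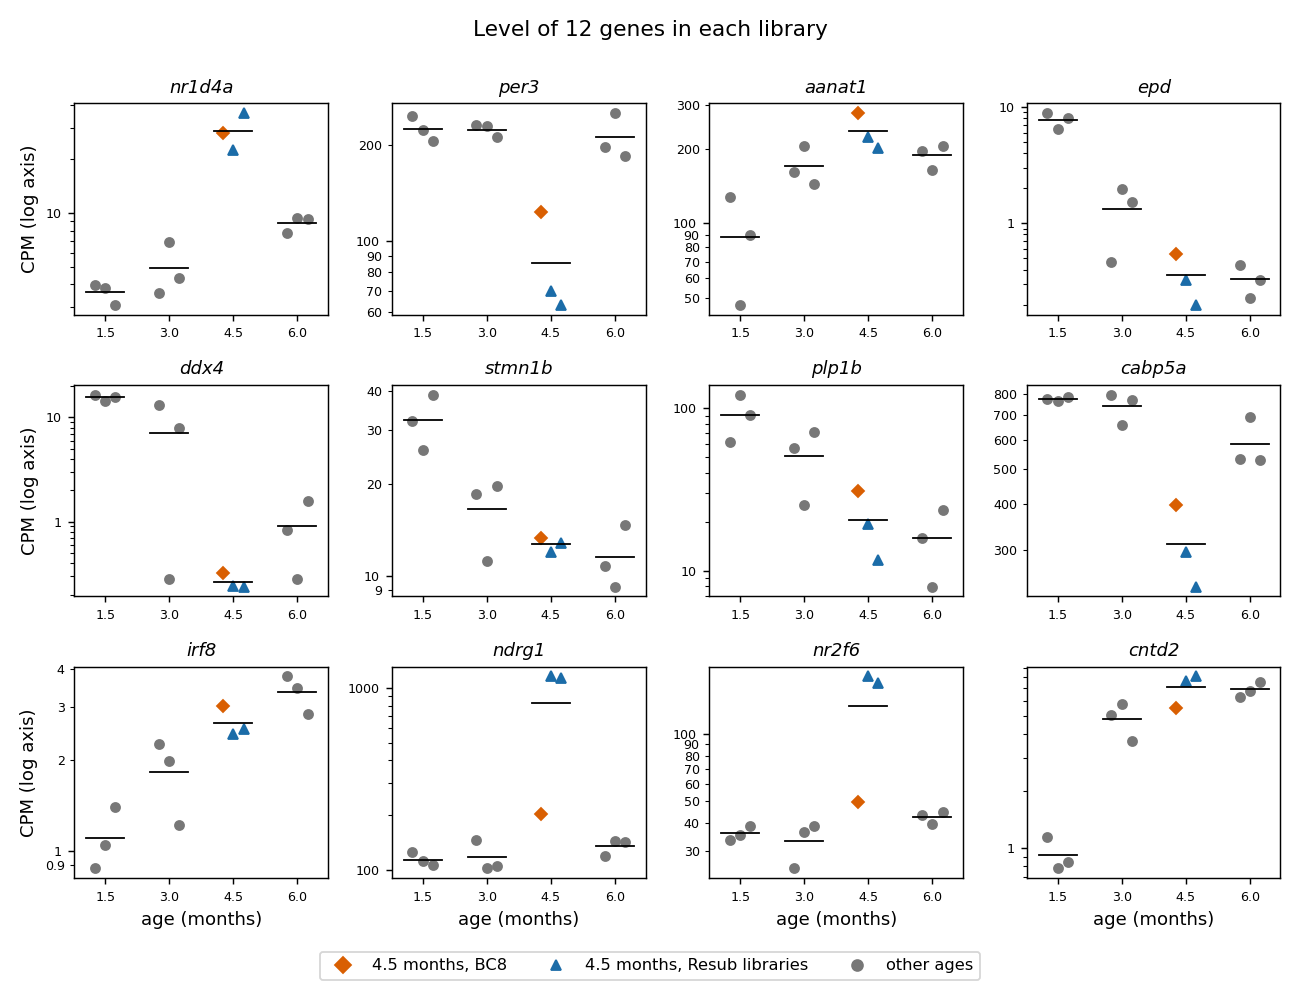
CPM (log axis) of 12 genes in each of the 12 libraries, by age in months; points are libraries and black lines are means of 3. At 4.5 months BC8 (diamond) stands with the Resub libraries (triangles) for nr1d4a, ddx4, stmn1b and irf8, and between them and the fish at 1.5 months for per3, cabp5a, ndrg1 and nr2f6; the Resub values of ndrg1 are 1161 and 1133 CPM and that of BC8 is 202 CPM.

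Falls were led among the named genes by germ-line genes. The gene piwil2 encodes a PIWI protein that binds small RNAs guarding the germ line against transposons, and ddx4 encodes the RNA helicase Vasa. At 4.5 months ddx4 had 0.319, 0.244 and 0.238 CPM, against 16.6, 14.5 and 15.8 CPM at 1.5 months, with 3 tight young fish and 3 tight older ones (log2 change -5.86 ± 1.13, edgeR adjusted p = 0.029). For piwil2 the values were 0.114, 0.0203 and 0.0594 CPM and 1.17, 17.9 and 0.888 CPM, so that replicate 2 at 1.5 months set much of its change of -6.66 ± 1.36 (edgeR adjusted p = 0.0331); without each library in turn this ran from -7.28 to -3.96. The testis gene adad2, an RNA-binding relative of adenosine deaminases, had 4.21, 2.42 and 2.04 CPM at 4.5 months and 11, 17 and 13.1 CPM at 1.5 months (log2 change -2.25 ± 0.36, edgeR adjusted p = 0.0175). BC8 had the least lowered value of the older fish in all 3 genes and lay below every young fish in each.

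Some markers of retinal progenitors and of the ciliary margin, from which fish add retina, fell: 5 of 27 tested members passed, all of them lower, and the list had a median log2 change of -0.47 (-0.49 in BC8 and -0.34 in the Resub libraries). Its summed level was 1661 CPM in BC8, 2352 and 2219 CPM in the Resub libraries and 1866 to 2162 CPM at 1.5 months. The sum was thus not lower in the Resub libraries. The gene fabp7, a fatty acid binding protein of progenitors and radial glia, had 129, 132 and 114 CPM at 4.5 months and 212, 209.9 and 331 CPM at 1.5 months (log2 change -1.01 ± 0.23, edgeR adjusted p = 0.0401). The microtubule regulator stmn1b had 13.3, 12 and 12.8 CPM, against 31.9, 25.7 and 39.1 CPM in the young fish (log2 change -1.35 ± 0.23, edgeR adjusted p = 0.0195). BC8 stood with the Resub libraries in both genes, and the 2 ages did not overlap.

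Among the transcription factors of the list, sox4 had 35, 45.8 and 50.1 CPM at 4.5 months and 80.6, 83 and 75.5 CPM at 1.5 months, and the proneural factor neurog1 had 2.27, 1.58 and 1.68 and 4.83, 4.2 and 4.95 CPM. Their log2 changes were -0.87 ± 0.19 and -1.33 ± 0.25 (edgeR adjusted p = 0.0346 and 0.0224). The collagen col15a1b fell with a log2 change of -0.99 ± 0.23 (edgeR adjusted p = 0.0453), with 89.2, 41 and 58.3 CPM at 4.5 months and 127, 110.3 and 138 CPM at 1.5 months. A further factor outside the list, foxd1, which marks the temporal retina in other vertebrates, had 3.28, 4.49 and 3.7 CPM against 8.52, 12.7 and 14.8 CPM (log2 change -1.65 ± 0.24, edgeR adjusted p = 0.013). The progenitor factor atoh7 gave 3.23, 4.51 and 4.43 CPM at 4.5 months and 7.18, 7.82 and 10.7 CPM at 1.5 months, and did not pass (log2 change -1.07 ± 0.32, edgeR adjusted p = 0.0853). Without BC8 the list counted 3 rises and 5 falls, and without either Resub library, or replicate 2 or 3 at 1.5 months, none. Without the 3 libraries with lens RNA it counted 2 rises and 3 falls, and without replicate 1 at 1.5 months 0 and 1.

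Of the 64 genes of cell cycle and DNA replication 2 fell and none rose, with a median of -0.44 (-0.58 in BC8 and -0.37 in the Resub libraries). As a share this is close to the 1.92% of all tested genes that fell. The count was 0 without either Resub library or any 1 fish at 1.5 months, 5 without the 3 libraries with lens RNA and 10 with DESeq2. The salvage enzyme for thymidine, tk1, had 3.0, 2.27 and 3.94 CPM at 4.5 months and 8.28, 6.57 and 9.69 CPM at 1.5 months (log2 change -1.41 ± 0.32, edgeR adjusted p = 0.0398). For the spindle checkpoint kinase bub1 these were 4.78, 4.59 and 5.84 and 10.6, 11 and 12.9 CPM (log2 change -1.18 ± 0.24, edgeR adjusted p = 0.0301). The spindle gene dlgap5, outside the list, had 1.14, 2.86 and 2.79 CPM against 8.23, 5.18 and 8.63 CPM (log2 change -1.69 ± 0.37, edgeR adjusted p = 0.0353), with BC8 the lowest fish. In contrast, pcna, the sliding clamp of replication, overlapped between the ages, at 78.1, 83.4 and 83.6 CPM and 75.2, 64.6 and 80.6 CPM (log2 change 0.15 ± 0.14, edgeR adjusted p = 0.542).

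Oligodendrocyte and myelin genes fell at 3 of 18 tested members, and the median of the list was -1.20, with -0.53 in BC8 and -1.59 in the Resub libraries. The myelin proteolipid gene plp1b had 30.8, 19.3 and 11.7 CPM at 4.5 months and 62.4, 121 and 90.6 CPM at 1.5 months (log2 change -2.15 ± 0.50, edgeR adjusted p = 0.0483). For olig2, the lineage transcription factor, the values were 4.1, 4.59 and 3.33 CPM and 10.6, 13.2 and 12.9 CPM (log2 change -1.61 ± 0.32, edgeR adjusted p = 0.0261). The enzyme gene ugt8, needed for myelin galactolipids, had 11.2, 7.88 and 5.74 CPM against 21.6, 25.3 and 28.7 CPM (log2 change -1.61 ± 0.29, edgeR adjusted p = 0.021). BC8 was the least lowered fish for plp1b and ugt8 but not for olig2.

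The compact myelin genes mbpb and mpz had lower values at 4.5 months and did not pass: mbpb had 6.74, 6.98 and 2.93 CPM at 4.5 months and 23.5, 61.5 and 49.8 CPM at 1.5 months (log2 change -3.02 ± 0.78, edgeR adjusted p = 0.0676), and mpz 13.7, 27.9 and 6.55 CPM and 32.2, 131 and 78.6 CPM (log2 change -2.33 ± 0.59, edgeR adjusted p = 0.0617). Without BC8 the list counted 9 falls, without replicate 2 at 3.0 months 6, and without either Resub library, or replicate 2 or 3 at 1.5 months, none. Without replicate 1 at 1.5 months 1 gene fell and without the 3 libraries with lens RNA 5 did. The ependymin gene epd, a secreted protein of the fish brain, had 0.546, 0.325 and 0.198 CPM against 8.84, 6.48 and 7.95 CPM (log2 change -4.44 ± 0.53, edgeR adjusted p = 0.00761), and the ages were far apart. The pigment cell enzyme tyrp1b had 8.65, 1.95 and 4.51 CPM at 4.5 months and 34.2, 34.7 and 59.1 CPM at 1.5 months (log2 change -3.08 ± 0.71, edgeR adjusted p = 0.0483); it was the only 1 of 22 melanin and pigment cell genes to pass, and the list's median was -0.37 (0.01 in BC8 and -0.52 in the Resub libraries).

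Of 18 bipolar cell genes 2 fell, the calcium-binding proteins cabp5a and cabp5b, while 9 of the 18 had a positive log2 change and the median was 0.01. In the 3 fish at 4.5 months cabp5a had 398, 296 and 238 CPM, against a narrow 775, 766 and 785 CPM at 1.5 months (log2 change -1.32 ± 0.19, edgeR adjusted p = 0.013). For cabp5b the values were 61.1, 57.6 and 60.9 CPM and 110.5, 111 and 106 CPM (log2 change -0.87 ± 0.14, edgeR adjusted p = 0.0179). BC8 was between the young fish and the Resub libraries for cabp5a and level with them for cabp5b.

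Ganglion cell genes fell at 2 of 13 tested members, none of the 13 had a positive log2 change, and the median was -0.86 (-0.40 in BC8 and -1.19 in the Resub libraries). These were slc17a6b, the vesicular glutamate transporter of these cells, with 32, 19.8 and 18.3 CPM at 4.5 months and 53, 76.8 and 58.8 CPM at 1.5 months, and elavl4, a neuronal RNA-binding protein, with 50.1, 35.5 and 36.1 and 64.2, 89.2 and 67.6 CPM. Their log2 changes were -1.43 ± 0.27 and -0.86 ± 0.19 (edgeR adjusted p = 0.0248 and 0.0376). Summed over the list, the level was 2789 CPM in BC8, 1569 and 1520 CPM in the Resub libraries, and 2466, 3938 and 3115 CPM at 1.5 months, so BC8 lay within the range of the young fish. Single libraries of other ages had low sums as well: replicate 2 at 3.0 months had 1832 CPM beside 2755 and 3036 CPM in its group, and replicate 2 at 6.0 months 1543 CPM beside 2644 and 2701 CPM. Ribosomal protein sums were low in the same libraries, at 18360 and 24910 CPM, and in the Resub libraries. In the oligodendrocyte list, too, these replicates had the lowest sums of their ages (445 CPM beside 768.7 and 1059 CPM, and 315.8 CPM beside 386.2 and 514.9 CPM). The part of such a difference between libraries in the ganglion cell and oligodendrocyte values was not tested. Without BC8 the ganglion cell list counted 7 falls, without replicate 1 at 1.5 months 1, and without either Resub library, or replicate 2 or 3 at 1.5 months, none.

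Of 30 genes of synaptic vesicles and transmission, 1 rose and 2 fell. The vesicle protein synapsin syn1 had 39.8, 35.6 and 36.6 CPM against 59.6, 77.7 and 62.3 CPM (log2 change -0.83 ± 0.17, edgeR adjusted p = 0.029), and the other fall was slc17a6b. The rise was cplx4c, a complexin of the ribbon synapse, at 40.9, 62.1 and 58.5 CPM and 27.5, 28.3 and 31.6 CPM (log2 change 0.89 ± 0.19, edgeR adjusted p = 0.0348). Further neuronal genes among the largest falls were slc17a8, a glutamate transporter of some amacrine cells, at 2.27, 1.46 and 1.58 CPM and 5.22, 8.07 and 6.43 CPM, kcnd1, a potassium channel, at 6.71, 2.11 and 2.75 CPM and 12.9, 20.6 and 12.1 CPM, and cacnb3b, a calcium channel subunit, at 17.1, 7.07 and 7.48 CPM and 23.8, 40.2 and 36.2 CPM. They fell, with log2 changes of -1.89 ± 0.27, -1.98 ± 0.40 and -1.67 ± 0.38 (edgeR adjusted p = 0.0111, 0.029 and 0.0429).

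Amacrine and horizontal cell markers moved the other way at 2 of 18 members, beside 1.11% of all tested genes that rose. Only 6 of the 18 had a positive log2 change, so the 2 rises do not describe the list. The neuropeptide vip had 67.1, 56.6 and 64.2 CPM at 4.5 months and 40.8, 40.3 and 41.5 CPM at 1.5 months (log2 change 0.62 ± 0.11, edgeR adjusted p = 0.0195), and lhx1, a transcription factor of horizontal cells, had 28.4, 25.4 and 25 CPM and 16.7, 15.3 and 15.2 CPM (log2 change 0.74 ± 0.12, edgeR adjusted p = 0.0181). In both, BC8 was the highest fish and the ages did not overlap. The median of the list was -0.13, and the list counted 0 rises and 1 fall without the 3 libraries with lens RNA, 0 of each without either Resub library, and 1 rise without replicate 1 at 1.5 months.

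Photoreceptor genes gave few calls. Of 29 genes of the rod list 1 rose, the visual pigment kinase grk1b, at 295, 619.8 and 575 CPM against 211, 181 and 221 CPM (log2 change 1.28 ± 0.30, edgeR adjusted p = 0.0471). The list placed grk1b with rods, and whether rods or cones held its RNA was not tested. BC8 stood above each young fish but nearer to them than to either Resub library. The rod list had a median of 0.41, with -0.03 in BC8 and 0.61 in the Resub libraries, and it counted 10 rises without BC8. None of the 21 genes of the cone list, which did not hold grk1b, passed (median 0.01), and none of 24 outer segment and cilium genes (median 0.29). The short-wavelength opsins overlapped or stood near each other: opn1sw at 636, 741 and 630.3 CPM and 865, 691 and 727 CPM (log2 change -0.18 ± 0.15, edgeR adjusted p = 0.504), and opn1sw2 at 1051, 1058 and 934 and 985, 858 and 936 CPM (log2 change 0.13 ± 0.18, edgeR adjusted p = 0.704). No call was made for the zinc transporter slc30a8, whose values were 308, 113 and 110.5 CPM at 4.5 months and 28, 37.9 and 59.6 CPM at 1.5 months (log2 change 2.08 ± 0.50, edgeR adjusted p = 0.0501).

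Of 25 genes of RPE and visual cycle 1 rose and none fell. The isomerase gene rpe65 did not pass: it had 5047 CPM in BC8, 2243 and 2244 CPM in the Resub libraries and 3244, 3928 and 5964 CPM at 1.5 months (log2 change -0.46 ± 0.39, edgeR adjusted p = 0.523). The Mueller glia list had 1 fall of 22, fabp7, and the glial genes gfap, glula and vim did not pass (log2 changes -0.87 ± 0.30, -0.38 ± 0.25 and -0.07 ± 0.29; edgeR adjusted p = 0.129, 0.387 and 0.919).

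Macrophage genes rose at 2 of 35 members, beside 1.11% of all tested genes. The median of the list was 0.70, with 1.14 in BC8 and 0.32 in the Resub libraries. The summed level of the list was 2676 CPM in BC8, 1269 and 1383 CPM in the Resub libraries and 1815 to 2080 CPM at 1.5 months. Both Resub libraries thus lay below every young fish in this sum. The lineage factor irf8 had 3.0, 2.44 and 2.53 CPM at 4.5 months and 0.879, 1.05 and 1.4 CPM at 1.5 months (log2 change 1.26 ± 0.29, edgeR adjusted p = 0.0418). The signalling adaptor hcls1 of blood cells had 13.8, 22.1 and 15.3 CPM against 8.2, 8.8 and 8.69 CPM (log2 change 1.00 ± 0.23, edgeR adjusted p = 0.0452). The 3 fish at 4.5 months lay above the young fish in both. The count of the list was 0 without the 3 libraries with lens RNA, which include BC8, and 0 without either Resub library, each fish at 1.5 months or replicate 1 at 6.0 months; it was 1 without replicate 1 or 3 at 3.0 months or replicate 3 at 6.0 months.

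Further immune genes that rose were the interferon-linked parp9 (10.6, 12.4 and 11.3 CPM at 4.5 months and 7.54, 6.88 and 7.25 CPM at 1.5 months), the cytokine signalling factor stat6 (26.1, 21.7 and 22.5 and 13.8, 6.66 and 7.95 CPM), and the chemokine receptor cxcr2 (1.64, 0.975 and 0.832 and 0.366, 0.447 and 0.254 CPM). Log2 changes were 0.66 ± 0.13, 1.31 ± 0.28 and 1.68 ± 0.41 (edgeR adjusted p = 0.0248, 0.0347 and 0.049). The call of cxcr2 was lost in each of the 12 fits that left out a library. With parp9 and irf8, which also counts in the macrophage list, the interferon list had 2 rises of 15 (median 0.66). The factor stat6 was the single rise of 27 NF-kB and inflammatory cytokine genes (median 0.17). The receptor cxcr2 was the single rise of 9 neutrophil genes (median 1.07, with 1.60 in BC8 and -0.17 in the Resub libraries). Of all tested genes 1.11% rose. The leukocyte genes ptprc (1.12 ± 0.37), csf1ra (0.72 ± 0.37) and mpeg1.1 (0.02 ± 0.89) did not pass (edgeR adjusted p = 0.108, 0.279 and 0.993). Heme oxygenase hmox1 had 0.091, 0.0812 and 0.0396 CPM at 4.5 months and no count in any fish at 1.5 months, where 3 counts over the group correspond to 0.0226 CPM, and it did not pass.

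Other lists gave single calls or none. The glutathione synthesis gene gclc rose by 0.56 ± 0.10 on the log2 scale (1 of 31 antioxidant and iron genes), the glycolytic activator pfkfb3 rose by 0.96 ± 0.21 and the enolase eno2 fell, with a log2 change of -0.84 ± 0.17 (23 glycolysis genes), and the proteasome subunit psmd11b rose by 0.41 ± 0.09 (1 of 36). The nucleotide synthesis subunit rrm2b (log2 change -0.53 ± 0.12, 1 of 30 genes of DNA damage and senescence), the apelin receptor aplnra (-1.59 ± 0.34, 1 of 20 endothelial genes) and tox, a factor of lymphocytes and other cells (-0.62 ± 0.13, 1 of 14 lymphocyte genes), fell; col15a1b was also the single fall of 44 extracellular matrix genes. Their edgeR adjusted p values were 0.0231, 0.0383, 0.0316, 0.0418, 0.0351, 0.0353 and 0.029, in that order. No gene passed among complement (15 tested, median 0.51), antigen presentation (21, 0.30), glial stress response (24, 0.00), heat shock and chaperones (32, 0.03), immediate early genes (20, -0.04), oxidative phosphorylation (60, -0.11), cholesterol (27, 0.12), lysosome and autophagy (48, 0.08), skeletal muscle (17, -0.31) and mural cells and fibroblasts (29, -0.36). The same held for lens (20, 0.27), cornea and surface epithelium (19, -1.60), erythrocytes (10, 0.78) and cytosolic ribosomal proteins (80, -0.43). In all, 23 of 39 lists had a member that passed and 16 had none. Of the further single genes looked up, cd59 (-1.99 ± 0.59) and cdkn1a (0.45 ± 0.58) did not pass (edgeR adjusted p = 0.0928 and 0.688).

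**Figure D4:**
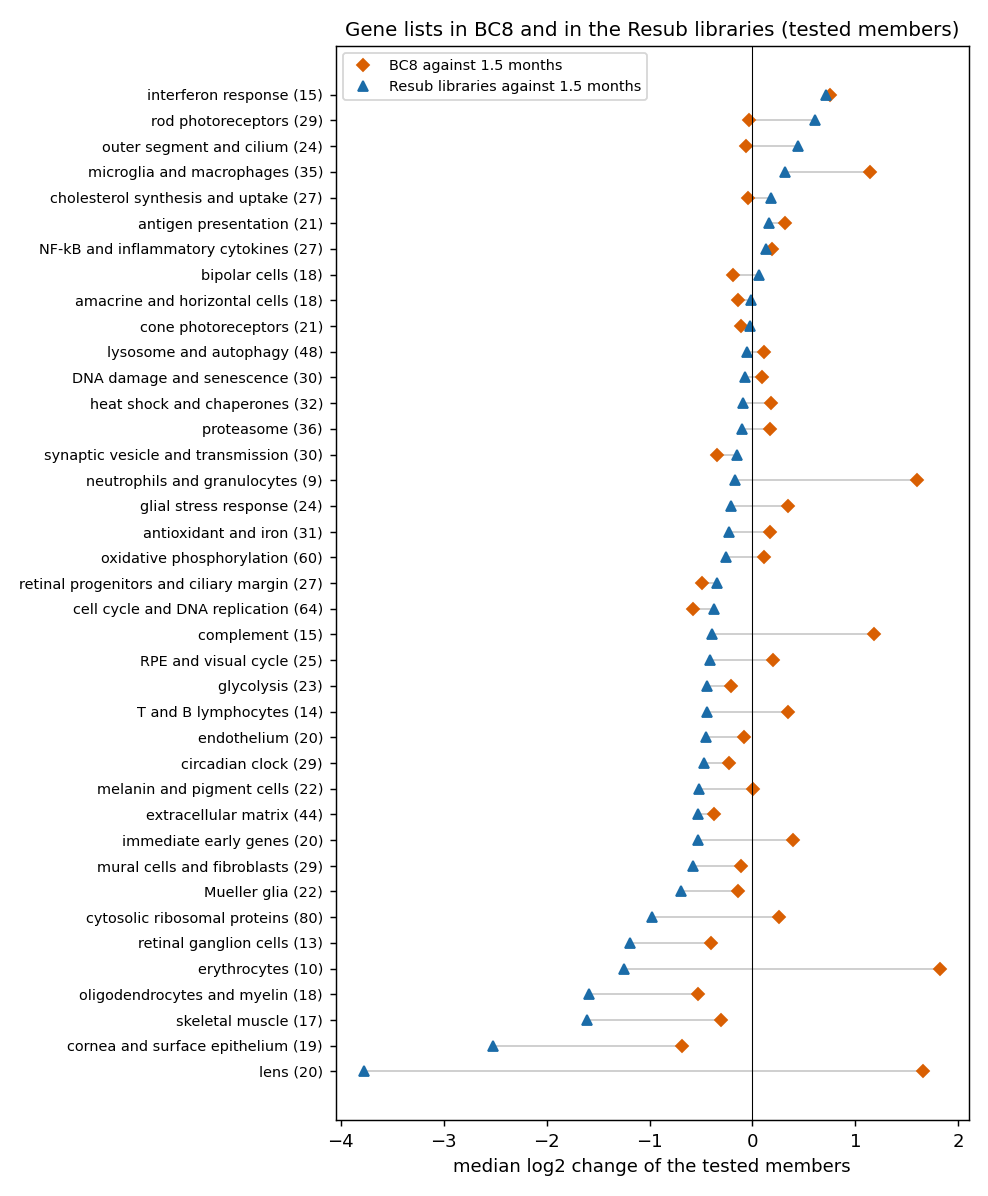
Median log2 change against 1.5 months of the tested members (number in brackets) of 39 gene lists, in BC8 (diamonds) and in the Resub libraries (triangles), which share the 1.5 months fish. The kinds of library are furthest apart for lens (1.66 in BC8, -3.77 in Resub) and erythrocytes (1.82 and -1.25), and lie on opposite sides of 0 for ribosomal proteins (0.26 and -0.98).

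The rises that came mainly from the Resub libraries included the stress-responsive gene ndrg1, the orphan nuclear receptor nr2f6 and syne2, which encodes a nesprin that ties the nucleus to the cytoskeleton. In BC8, ndrg1 had 202 CPM, against 1161 and 1133 CPM in the Resub libraries and 125, 111 and 106 CPM at 1.5 months. BC8 was thus above the young fish but far below the Resub libraries, and the difference between BC8 and Resub was -2.5 ± 0.27 (edgeR adjusted p = 0.00593), beside an age change of 2.87 ± 0.50 (edgeR adjusted p = 0.0206). For nr2f6 the levels were 49.8 CPM in BC8, 180.4 and 168 CPM in the Resub libraries and 33.9, 35.6 and 38.9 CPM at 1.5 months. For syne2 they were 19.6, 71.5 and 75.2 and 16.7, 18 and 12.6 CPM. BC8 differed from the Resub libraries by -1.81 ± 0.24 and -1.9 ± 0.25 (edgeR adjusted p = 0.012 and 0.012), and the age changes were 1.88 ± 0.37 and 1.81 ± 0.39 (edgeR adjusted p = 0.029 and 0.0373).

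The other genes among the 13 were tph1, cry5 and nr1d2b, described above, the symbols iffo2, igsf9b, slkb and gpr78b, and 3 entries without a symbol. The rises egfr and kera had the same shape without passing the test of BC8 against Resub. The growth factor receptor egfr had 62.2 CPM in BC8, 140.1 and 148 CPM in the Resub libraries and 45.5, 39.5 and 37.7 CPM at 1.5 months (difference -1.21 ± 0.25, edgeR adjusted p = 0.0508; age change 1.51 ± 0.28, edgeR adjusted p = 0.0232). The corneal stroma proteoglycan kera had 291, 812 and 807 and 277, 153 and 158 CPM in the same order. Its difference was -1.48 ± 0.41 (edgeR adjusted p = 0.102) and its age change 1.7 ± 0.38 (edgeR adjusted p = 0.0417). The list of cornea and surface epithelium, which did not hold kera, went the other way, with a median log2 change of -2.52 in the Resub libraries and -0.68 in BC8.

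Rises that BC8 had in nearly full size included cntd2, a gene with a cyclin fold, at 5.51, 7.63 and 8.1 CPM against 1.15, 0.782 and 0.846 CPM at 1.5 months (log2 change 2.94 ± 0.25, edgeR adjusted p = 7.36e-04; BC8 alone 2.57, edgeR adjusted p = 0.0133). They also included relt, a receptor of the tumour necrosis factor family (10.6, 14.9 and 12.7 CPM at 4.5 months, 5.35, 4.22 and 3.85 CPM at 1.5 months), mlf1 (7.55, 9.42 and 8.55 and 3.59, 2.37 and 2.5 CPM) and nmrk2, a nicotinamide riboside kinase (42.3, 64.1 and 45.4 and 19.7, 12.2 and 22.3 CPM). These rose by 1.51 ± 0.27, 1.59 ± 0.30 and 1.49 ± 0.25 (edgeR adjusted p = 0.0205, 0.0239 and 0.0183); a second entry shares the symbol nmrk2. For malrd1, BC8 had 6.35 CPM, the Resub libraries 18.6 and 15.8 CPM and the young fish 3.91, 1.79 and 2.16 CPM (log2 change 2.38 ± 0.47, edgeR adjusted p = 0.029). The gene csgr19h18orf21, whose role is not known here, had 53.3, 91.9 and 95.7 CPM at 4.5 months and 11.6, 17.1 and 15.8 CPM at 1.5 months (log2 change 2.43 ± 0.24, edgeR adjusted p = 0.00223). The gene si:ch1073-390k14.1 fell, at 3.71, 1.99 and 2.0 CPM against 7.49, 7.26 and 9.86 CPM (log2 change -1.68 ± 0.26, edgeR adjusted p = 0.0151).

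BC8 alone passed against 1.5 months at 7 rises and 3 falls (0.0338% and 0.0145% of all tested genes), and those named here were picked after their values were seen. The rises were nr1d4a, cntd2, csgr19h18orf21, cybb, dnaja, spon1b and 1 entry without a symbol, and mex3a and prr18 were among the falls. Of the 10 genes, 6 passed in the Resub libraries as well. The adhesion protein spon1b had 288 CPM in BC8, 85.8 and 84.3 CPM in the Resub libraries and 100.5, 86.8 and 83.4 CPM at 1.5 months, so it was high in BC8 and within or near the young range in the others (difference 1.76 ± 0.20, edgeR adjusted p = 0.00725). The phagocyte oxidase gene cybb had 4.92 CPM in BC8 and 0.873 and 0.653 CPM in the Resub libraries, against 0.83, 0.804 and 0.656 CPM at 1.5 months (difference 2.68 ± 0.44, edgeR adjusted p = 0.0314). By contrast mex3a, an RNA-binding protein, had 23, 33.9 and 38.5 and 71, 72.2 and 65.7 CPM in the same order, a fall in all 3 older fish (4.5 against 1.5 months -1.13 ± 0.18, edgeR adjusted p = 0.0178).

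Fish at 3.0 months lay between the other ages for most of the genes that changed. The mean log2 CPM at 3.0 months was strictly between those at 4.5 and 1.5 months for 543 of the 627 genes (86.6%), against 41.7% of all tested genes. Of the 229 rises 195 lay between (85.2%), 19 were at or beyond the 1.5 months mean and 15 at or beyond the 4.5 months mean. Of the 398 falls 348 lay between (87.4%), 43 were at or beyond the 1.5 months mean and 7 at or beyond the 4.5 months mean. At 3.0 months the median rise stood 0.47 of the way from the 1.5 to the 4.5 months mean, and the median fall 0.33 of the way. The 1.5 and 4.5 months means that set this scale also chose the genes, and the 3.0 months fish entered that choice only through the shared spread. The mean at 6.0 months, an age outside this interval, lay between them at 519 of the 627 genes (82.8%). This held for 76.4% of the rises and 86.4% of the falls, beside 32.4% and 41.3% of all tested genes on those sides. Lying between was thus not particular to 3.0 months.

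**Figure D5:**
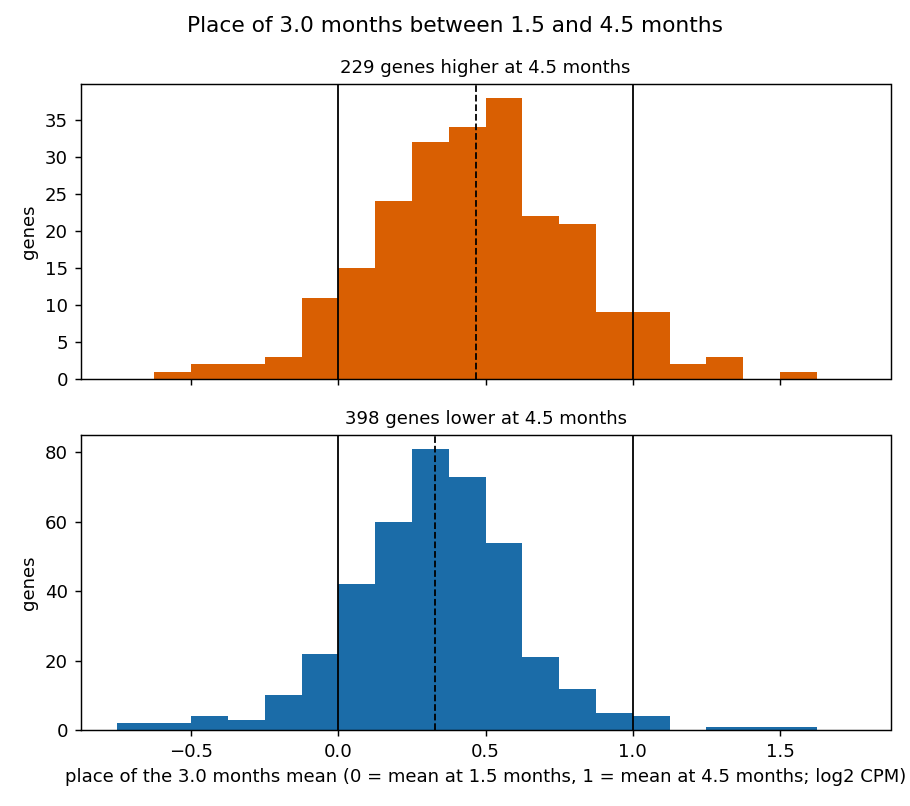
Number of genes by the place of the 3.0 months mean on the scale from the 1.5 months mean (0) to the 4.5 months mean (1) of log2 CPM, for the 229 genes higher and the 398 genes lower at 4.5 months. Solid lines mark 0 and 1, dashed lines the medians of 0.47 and 0.33, and values outside the axis are in its end bars.

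Tested against the midpoint of 1.5 and 4.5 months, 3.0 months differed at 4 of 20717 genes (0.0193%). At an unadjusted p under 0.05 it differed at 2256 genes (10.9%). Of the genes that passed between 4.5 and 1.5 months, 57 of 229 rises and 108 of 398 falls did so at that unadjusted p. Both are larger shares than the 10.9% of all tested genes. At the adjusted threshold, 1 of the 229 rises and 0 of the 398 falls differed from the midpoint. A gene can differ from the midpoint and still lie between the ages, so this does not test lying between. The 4 genes that passed were palmd, dedd2, csgr19h18orf21 and 1 entry without a symbol. The count was 66 without BC8, 3 without replicate 2 at 6.0 months, 1 without replicate 2 at 3.0 months, and 0 without any other library. The cytoskeletal gene palmd had 3.22, 2.73 and 1.33 CPM at 1.5 months, 9.76, 14.1 and 10.3 CPM at 3.0 months, 3.28, 4.61 and 4.04 CPM at 4.5 months and 19.1, 30.9 and 19.2 CPM at 6.0 months (3.0 months against the midpoint 1.88 ± 0.25, edgeR adjusted p = 0.0424). The cell death gene dedd2 averaged 94.3 ± 10.4, 148 ± 19.5, 73.4 ± 2.81 and 144 ± 6.91 CPM at those ages (SD, n = 3 each; 0.83 ± 0.10, edgeR adjusted p = 0.0406). Both were high at 3.0 and 6.0 months and low at the other ages, and neither passed between 4.5 and 1.5 months. The 3.0 months fish had 10.3, 9.38 and 13.3 CPM of csgr19h18orf21, all near or below the young fish (-1.65 ± 0.21, edgeR adjusted p = 0.0406).

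By the place of the 3.0 months mean, some changes were largely there at that age, and the genes given here were picked by that place. The secreted protein gene epd had 0.465, 1.96 and 1.52 CPM there, with the mean 0.62 of the way, and cntd2 had 5.03, 5.78 and 3.67 CPM (0.81). Of the progenitor list, stmn1b and fabp7 stood 0.75 and 0.83 of the way, and foxd1, outside that list, 0.85. Others stood near the 1.5 months mean: nr1d4a had 3.57, 6.87 and 4.36 CPM at 3.0 months (0.13 of the way), per3 231, 229.5 and 212 CPM (0.00), cabp5a 796, 658 and 769 CPM (0.05) and ndrg1 146, 102 and 105 CPM (0.01). Each age held different fish, so these places compare groups and do not follow a fish over time. For ddx4 the 3.0 months fish were split, at 13.1, 0.279 and 7.9 CPM, with replicate 2 at the level of 4.5 months. Between 3.0 and 1.5 months 4 genes passed (0.0193%), with 3 of the 229 rises, cntd2 among them, and 0 of the 398 falls. The falls epd, stmn1b, fabp7 and foxd1 thus did not pass by 3.0 months. Between 4.5 and 3.0 months 66 genes passed (0.319%), of which 17 were among the 229 rises and 36 among the 398 falls in the same direction.

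At 6.0 months the median rise stood at 0.63 and the median fall at 0.47 of the way from the 1.5 to the 4.5 months mean. Against 1.5 months, 59 of the 229 rises (25.8%) and 77 of the 398 falls (19.3%) also passed at 6.0 months in the same direction, where 1.75% and 1.02% of all tested genes passed. In all, 2.78% of genes passed in that comparison, which shares the 1.5 months fish. Between 6.0 and 4.5 months 124 genes passed (0.599%), and 40 of the 627 were among them in the opposite direction, 16 that had risen and 24 that had fallen. The 4.5 months fish of this comparison also chose the 627 genes, so the choice favours a return. The level of nr1d4a at 6.0 months was 7.73, 9.38 and 9.29 CPM, of per3 198, 253 and 185 CPM and of ndrg1 119, 144 and 143 CPM, each nearer to 1.5 than to 4.5 months. In cntd2 (6.32, 6.79 and 7.55 CPM) and epd (0.436, 0.228 and 0.323 CPM) the fish at 6.0 months were near those at 4.5 months and no difference passed (6.0 against 4.5 months -0.04 ± 0.22 and -0.12 ± 0.52; edgeR adjusted p = 0.96 and 0.947).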

How the data were processed

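Whole-number counts of reads per gene were analysed as deposited, without normalization, for 25122 genes and 12 libraries of male killifish retina with RPE, 3 for each age. Per the labels' protocols, the authors extracted total RNA and made Nextera XT libraries, sequenced on 1 NovaSeq lane; aligner, counting program, annotation and genome build are not given in the sources used here, so no coordinates or sequences are printed. Of the deposited counts from 1 to 20, 73.16% were even, as when both mates of a read pair are counted, which makes counting error larger than expected from total counts. A second deposited count table was byte for byte the same, and a normalized table was not used.

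Where the deposited name was only a locus number, the symbol came from the RefSeq table of NfurGRZ-RIMD1 by gene number (5257 of 14589), so that 14824 tested genes had a symbol and 5893 had none; 150 symbols were shared by several entries. Reads shared between paralogs may be split in a way that is not stated, and strand was not stated either. R 4.3.3 with edgeR 4.0.16 kept 20717 genes (filterByExpr, minimum count 10, minimum total 15; 99.98% of counts), scaled with TMM and fitted all 12 libraries with robust dispersions; the common biological coefficient of variation was 0.306. Ages were 4 groups (8 residual degrees of freedom). BC8 and the Resub libraries were set apart in a fit of 5 groups (7 residual degrees of freedom). Quasi-likelihood F-tests were adjusted by Benjamini-Hochberg over all tested genes, and a gene passed under 0.05; standard errors (SE, after ±) are the log2 change over the square root of F. CPM uses TMM-scaled totals, and places of an age use log2 CPM with a prior count of 0.5. A test of 3 against 3 fish alone cannot go below an exact p of 0.1, so calls depend on the spread borrowed from other genes and ages. The labels number fish as biological replicates. The test was run on simulated counts drawn with the fitted spread. These held no difference between BC8 and the Resub libraries, so they cannot check the calls under that difference.

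Named genes were the 15 largest rises and falls with a symbol, 5 CPM in the higher age and no overlap, the members of 39 lists that passed, the 6 largest of each direction in the other tests, and 25 symbols always looked up, of which 23 were found. Members, lists and comparisons were chosen with earlier results of these data known. Alternatives were DESeq2 1.42.0, DESeq2-type size factors in edgeR, no filter, only the ages compared, a replicate block, and leaving libraries out; list counts under these were added after seeing the data. Some named genes are not reported here.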

Additional observations from a re-analysis of the deposited data

Results flagged for a closer look

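The 3 fish at 4.5 months were not alike. BC8 differed from the Resub libraries at 165 genes (0.796% of those tested; 4263 at an unadjusted p under 0.05) in edgeR's quasi-likelihood test of that difference, with 103 higher and 62 lower in BC8. The number was 1 without either Resub library, 50 and 43 without replicates 2 and 3 at 1.5 months, 48 and 1471 without replicates 1 and 2 at 3.0 months, and 479 without replicate 2 at 6.0 months.

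At 61 of the 103 genes BC8 lay above all 3 fish at 1.5 months while both Resub libraries lay below them, and at 42 of the 62 the reverse held. Genes chosen for a difference between BC8 and the Resub libraries favour such a split. Its share over all tested genes was not counted, so these counts describe no trait of the genes. The fibrinogen genes fgb and fgg and complement c3, which the liver makes in large amounts, were among the largest differences; of these, c3 had both Resub libraries below every fish at 1.5 months. BC8 had 19.4 CPM of c3, against 0.0812 and 0.0792 CPM in the Resub libraries and 0.732, 1.39 and 3.26 CPM at 1.5 months (difference 7.87 ± 0.93, edgeR adjusted p = 0.00855). For fgb the values were 19.3, 0.203 and 0.0792 and 0.195, 0.626 and 2.16 CPM, and for fgg 13.3, 0.0609 and 0.0396 and 0.0488, 0.179 and 0.846 CPM (differences 7.07 ± 1.04 and 7.97 ± 1.52, edgeR adjusted p = 0.023 and 0.0463).

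The erythrocyte anion exchanger slc4a1 had 65.1 CPM in BC8, 2.13 and 3.44 CPM in the Resub libraries and 8.2, 11.78 and 17.5 CPM at 1.5 months (difference 4.54 ± 0.73, edgeR adjusted p = 0.0362). Of 10 erythrocyte genes 9 were higher in BC8 than in both Resub libraries and 2 passed, and of 20 lens genes 19 were higher and none passed. All 80 ribosomal protein genes were higher in BC8 than in both Resub libraries, and none passed. The share of all tested genes higher in BC8 than in both Resub libraries was not counted. How far these 3 lists stand out from the other genes is therefore not known here. The early response gene fosb had 6.19 CPM in BC8, 0.122 and 0.396 CPM in the Resub libraries and 3.54, 3.69 and 5.29 CPM at 1.5 months (difference 4.56 ± 0.86, edgeR adjusted p = 0.0463). Against 1.5 months its log2 change was 0.57 in BC8 and -3.99 in the Resub libraries, so the Resub libraries made most of the difference. For b3gnt7, a glycosyltransferase, the values were 7.92, 0.365 and 0.238 and 3.76, 1.7 and 2.28 CPM (difference 4.7 ± 0.48, edgeR adjusted p = 0.00511). Its log2 change was 1.62 in BC8 and -3.09 in the Resub libraries.

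Of the second kind, prdm1b, a gene for the transcriptional repressor Blimp-1, had 26.4 CPM in BC8, 220.4 and 215 CPM in the Resub libraries and 47.5, 61.6 and 59.3 CPM at 1.5 months (difference -3.05 ± 0.24, edgeR adjusted p = 9.73e-04). It passed in each of the 11 fits without 1 library that could be run. The gene cdr2a had 16.3, 84.8 and 89 and 21.1, 18.7 and 23.3 CPM (difference -2.42 ± 0.34, edgeR adjusted p = 0.0158), and dnah10, a motor protein of motile cilia, 0.592, 5.4 and 4.63 and 0.806, 1.01 and 0.846 CPM (difference -3.08 ± 0.56, edgeR adjusted p = 0.0435). The part of blood, lens or dissection in these differences was not tested.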

How the results depend on the processing

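Between 4.5 and 1.5 months the 627 genes became 641 with DESeq2-type size factors, 555 without the filter, 2112 with DESeq2, 107 with only the ages compared, 1029 without the 3 libraries with lens RNA (390 of them shared with the 627) and 1 without the Resub libraries, and ran from 5 to 2841 with 1 library left out. BC8 against 1.5 months gave 506 with DESeq2, 453 with only the ages compared and 1 without the Resub libraries (0 to 156 with 1 library left out). The Resub libraries against 1.5 months gave 4409 with DESeq2, 5129 with only the ages compared and 1029 without lens libraries (175 to 4187). BC8 against Resub gave 1530 with DESeq2 and 2570 with only the ages compared (1 to 1471), and 3.0 months against the midpoint gave 357, 0 with only the ages compared and 0 without the Resub libraries (0 to 66). With DESeq2, BC8 shared 2083 of 2112 genes with both Resub libraries and 3.0 months lay between for 1705; the causes were not tested. BC8 tests without BC8 or without the lens libraries could not be fitted.

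Same-numbered fish of 4.5 and 1.5 months had correlations of 0.161, 0.026 and 0.127, the own number being the best match in 2 of 3. With 3 fish an age these values cannot settle whether same-numbered fish pair. With a replicate block the counts were 474, 1 for BC8, 2007 for Resub, 23 for BC8 against Resub and 4 for the midpoint.

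Of genes that had not passed, the log2 change turned round without the Resub libraries for rpe65 (0.20), glula (0.13) and vim (0.40), and without the lens libraries for mpeg1.1 (-1.89), cdkn1a (-0.47) and c3 (-4.61, edgeR adjusted p = 0.0315). For mpeg1.1 it was -0.23 with the block and -0.004 with only the ages compared. With 1 library left out these ran from -0.38 to 0.066 for vim, from -1.61 to 0.57 for mpeg1.1, from -0.083 to 1.44 for cdkn1a and from -4.44 to 2.61 for c3; the causes were not tested. Levels under about 1 CPM, such as those of piwil2 at 4.5 months, rest on few counts.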

Other observations

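Several genes that passed at 4.5 months had returned at 6.0 months; they are named here after their values were seen. The same 4.5 months fish chose these genes and enter the test of 6.0 against 4.5 months, so the choice favours a return. For kera and aqp9, BC8 stood nearer to the young fish than to the Resub libraries. The corneal proteoglycan kera had 277, 153 and 158 CPM at 1.5 months, 203, 288 and 227 CPM at 3.0 months, 291, 812 and 807 CPM at 4.5 months and 118, 87.8 and 150.4 CPM at 6.0 months (6.0 against 4.5 months -2.42 ± 0.39, edgeR adjusted p = 0.0285). The neuropeptide vip had 40.8, 40.3 and 41.5, 59.9, 57.2 and 48.4, 67.1, 56.6 and 64.2 and 33.8, 32.4 and 32.5 CPM at those ages (-0.93 ± 0.11, edgeR adjusted p = 0.00921). The photoreceptor synapse gene cabp4 had 62.2, 50.7 and 57.3, 70.7, 60.6 and 72.7, 83.4, 96.1 and 91.2 and 51.3, 49.2 and 56.5 CPM (-0.79 ± 0.12, edgeR adjusted p = 0.0159), and the glycerol and water channel aqp9 78.9, 72.3 and 68.5, 65.2, 102 and 68.3, 101, 211 and 208 and 66.9, 67.4 and 66.3 CPM (-1.37 ± 0.25, edgeR adjusted p = 0.0404). In the opposite direction, the axonal motor kif1aa had 81.1, 104 and 96.4, 70.9, 101 and 68.8, 43.39, 39.6 and 45.9 and 83.1, 67.9 and 74.5 CPM (0.81 ± 0.16, edgeR adjusted p = 0.0492). The kinase sik2 had 323, 281 and 290.4, 357, 342 and 286, 176, 143 and 147 and 307, 318 and 223 CPM (0.86 ± 0.16, edgeR adjusted p = 0.0424).

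Some genes of motile cilia and sperm tails were among the rises at 4.5 months, again picked after their values were seen and with no test as a group. How many such genes were tested, and how many fell, was not counted. The tektin tekt1 had 3.5, 4.34 and 5.13 CPM at 4.5 months and 1.73, 1.07 and 1.29 CPM at 1.5 months (log2 change 1.66 ± 0.26, edgeR adjusted p = 0.0151), and the dynein heavy chain dnah5 12.7, 21.4 and 17.7 and 6.93, 7.71 and 7.51 CPM (1.23 ± 0.21, edgeR adjusted p = 0.0195). The genes cfap263 and drc3 rose by 1.37 ± 0.31 and 0.77 ± 0.18 (edgeR adjusted p = 0.0415 and 0.0436). Their relative dnah10 passed in the Resub libraries against 1.5 months (2.5, edgeR adjusted p = 0.00255) and not in BC8 (-0.58, edgeR adjusted p = 0.674).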
